A study of Drosophila melanogaster with 4 samples.

Results

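The transcripts of 9 genes that set cell polarity and orient the mitotic spindle were followed in RNA bound to the poly(A)-binding protein (PABP) of Drosophila intestinal progenitors. They were chosen by symbol, as 9 of the 17806 named genes counted: baz, par-6 and aPKC of the Par complex, the kinase gene par-1, the basolateral gene l(2)gl, the spindle orientation genes insc, pins and mud, and the fate determinant numb. Adult flies were powdered, exposed to ultraviolet light, which joins proteins to the RNA they touch, and lysed. PABP and its RNA were then taken out on FLAG beads in 2 immunoprecipitation (IP) libraries, and RNA of the total extract before this step gave 2 input libraries. Each sample held 200 whole flies, 100 male and 100 female. The labels assign the IP to intestinal progenitor cells and the input to all cells. The sources used here give neither the flies' genotype, nor the driver of the tagged PABP, nor their age in days. Only the series title names I-KCKT, described there as a way to profile the RNA of these cells without dissection.

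Animal cells become polarized when proteins gather at opposite parts of the cortex and exclude one another. In fly neuroblasts, where the system is best known, the Par complex marks the apical cortex, its kinase aPKC drives Lgl and Numb off that cortex, and Inscuteable links the complex to Pins and Mud, which pull on the spindle. Numb is then inherited unequally and blocks Notch in the daughter that receives it. Intestinal stem cells of the adult midgut also divide into daughters of different fate, one staying a stem cell and the other usually becoming a Notch-activated enteroblast, and the Par complex, Numb and the orientation of the spindle have been studied in these divisions.

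Counts per library summed to 8987420 and 10761349 in the IP and to 2464629 and 3346231 in the input, and levels are given as CPM, counts brought to a common library total, after scaling by the trimmed mean of M values (TMM). Whether the samples of a group were separate collections of flies is not stated, so p-values measure the spread between these libraries, which may be technical. With edgeR's quasi-likelihood test and a threshold of 0.05 on the Benjamini-Hochberg adjusted p, 3708 of the 9989 genes that could be tested were higher in the IP and 3873 were lower. The zero point depends on the scaling. Upper-quartile factors gave 2574 higher and 5719 lower genes (25.8% and 57.3%), library size alone gave 2209 and 6347 (22.1% and 63.5%), the authors' size factors gave 2750 and 5384 (27.5% and 53.9%), and DESeq2 gave 3531 and 2520. Over the tested genes the log2 fold change had a median of -0.10 with TMM and of -0.71, -0.95 and -0.59 with the first 3 of these alternatives. Each of 8 testable progenitor markers rose in the IP, where the list summed to 9780 to 10671 CPM against 113 to 114 CPM in the input. The marker spdo stood at 0 in every library but lies wholly inside another gene, so its absence cannot be read. Transcripts of pAbp, the gene of the precipitated protein, were at 13130 to 13418 CPM in the IP and 1234 to 1387 CPM in the input. Neuroblast markers were near 0 in all 4 libraries, dpn, ase and wor together reaching 0.638 to 0.732 CPM in the IP and 0.441 to 1.22 CPM in the input; ase lies wholly inside another gene and dpn shares 67.1% of its span, so only wor was clear of such overlap.

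The comparison asks which transcripts are bound by PABP in progenitors, set against whole-animal RNA. All 9 genes were higher in the IP, where 37.1% of all tested genes were called higher and 38.8% lower. Their median log2 fold change was 2.49. The summed counts of the 9 took 0.514% and 0.526% of the IP libraries and 0.149% and 0.140% of the input libraries. In each of the 9 genes both IP libraries lay above both input libraries, which was so for 42.3% of all tested genes. Against a log2 fold change of at least 1 in place of 0, 8 of the 9 were called higher (21.5% of all tested genes), mud being the exception. Of the 9, 8 were higher in the authors' deposited table as well (21.3% of the genes with an adjusted p), again without mud. With library size alone 8 were higher and mud was lower, against 22.1% and 63.5% of all tested genes, and with upper-quartile or authors' factors 8 were higher and none lower, against 25.8% and 27.5% of all tested genes called higher. A higher value can come from more of the transcript in progenitors, from fewer or RNA-poorer cells of other types, from tighter binding by PABP or from RNA held by the beads themselves. Since no control precipitation and no progenitor input were analysed, these cannot be told apart.

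**Figure D1:**
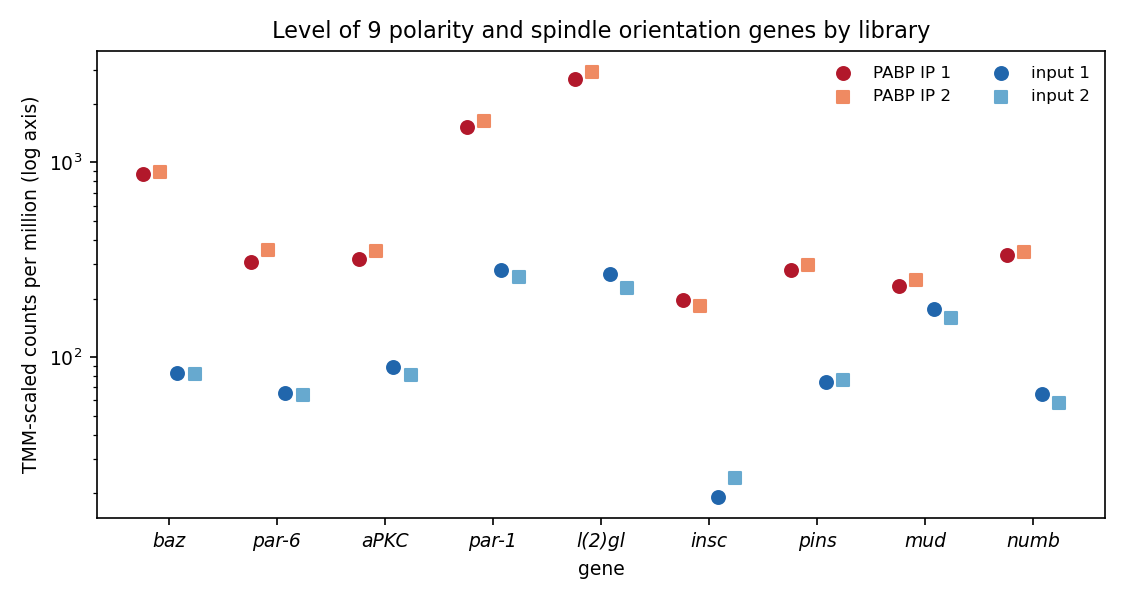
Level of each gene in each of the 4 libraries, in TMM-scaled CPM on a log axis; red marks are the IP, blue marks the input. The l(2)gl gene reached 2696 and 2914 CPM in the IP, and the IP and input marks of mud lie closest together.

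The Par complex genes did not shift evenly. The scaffold gene baz, whose product places the complex at the cortex, had 874 and 891 CPM in PABP IP 1 and 2 and 83.0 and 82.3 CPM in input 1 and 2. Both IP libraries stood far above both input libraries, and replicates nearly coincided. The rise was 10.7-fold (log2 fold change 3.42 ± 0.12 SE, adjusted p = 2.14e-13). The adaptor gene par-6, which couples the kinase to the small GTPase Cdc42, had 308 and 354 CPM in the IP and 65.3 and 63.8 CPM in the input. The groups did not overlap, and the gap between the IP replicates was the widest of the 9 genes in that group (0.20 on the log2 scale). It rose 5.13-fold (log2 2.36 ± 0.12 SE, adjusted p = 6.44e-12). The kinase gene aPKC had 319 and 350 CPM in the IP and 88.5 and 81.5 CPM in the input. Its IP libraries were both higher, by 3.95-fold (log2 1.98 ± 0.11 SE, adjusted p = 3.35e-11).

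Ratios between genes within a library do not depend on how the libraries are scaled. Counts of baz stood to those of aPKC as 0.938 and 1.01 to 1 in input 1 and 2, and as 2.74 and 2.54 to 1 in PABP IP 1 and 2. The baz gene thus held about as many reads as the kinase gene in whole animals and clearly more in the IP. The 95% intervals of their log2 fold changes (3.16 to 3.68 for baz, 1.75 to 2.21 for aPKC) did not overlap. Between par-6 and aPKC the ratio was 0.738 and 0.783 in the input and 0.965 and 1.01 in the IP, and the intervals of their fold changes overlapped (2.12 to 2.60 for par-6). The 3 genes have unequal spans, so these ratios compare reads, not molecules.

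Genes of the proteins that oppose the Par complex rose too. The kinase gene par-1, whose product phosphorylates Bazooka and keeps it off the lateral and basal cortex, had 1522 and 1636 CPM in the IP and 280 and 258 CPM in the input. It was the most abundant of the 9 by reads in the input and second in the IP. The rise was 5.87-fold (log2 2.55 ± 0.13 SE, adjusted p = 9.98e-12). In reads, par-1 exceeded baz 3.37 and 3.14 times in the input but 1.74 and 1.84 times in the IP.

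The tumour suppressor gene l(2)gl, whose basolateral product restrains aPKC and is in turn removed from the cortex by it, had the highest fold change and, in the IP, the highest level. It had 2696 and 2914 CPM in PABP IP 1 and 2 and 268 and 228 CPM in input 1 and 2. The IP libraries were far above the input libraries, whose own gap was small beside the difference. The rise was 11.3-fold (95% interval 9.12 to 14.1; log2 3.50 ± 0.15 SE, adjusted p = 1.30e-12), and 97.3% of tested genes had a lower log2 fold change. Reads of l(2)gl outnumbered those of aPKC 3.02 and 2.79 times in the input and 8.45 and 8.32 times in the IP. Of the 9989 tested genes, rin, CG45050 and spoon had the values most like those of l(2)gl over the 4 libraries, at distances of 0.15, 0.44 and 0.65 in log2 CPM. Their log2 fold changes were 3.54, 3.63 and 3.07.

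The 3 spindle orientation genes parted widely. The adaptor gene insc had 196 and 183 CPM in the IP and 19.2 and 24.1 CPM in the input, from 63 and 109 input counts. It was the least abundant of the 9 by reads in every library, and its input replicates differed most (0.32 on the log2 scale). Both IP libraries lay well above both input libraries, by 8.64-fold (log2 3.11 ± 0.13 SE, adjusted p = 1.08e-12). The gene pins, whose product joins the cortical G protein subunit Galphai to Mud, had 280 and 297 CPM in the IP and 74.5 and 76.4 CPM in the input. Replicates were close in both groups. The rise was 3.82-fold (log2 1.93 ± 0.11 SE, adjusted p = 2.72e-11).

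The gene mud encodes the microtubule-binding partner of Pins that recruits dynein to the cortex. It had 233 and 249 CPM in PABP IP 1 and 2 and 177 and 159 CPM in input 1 and 2. The groups did not overlap, but the gap between them was the smallest of the 9 genes. The value was 1.43-fold higher in the IP (95% interval 1.23 to 1.67; log2 0.52 ± 0.10 SE, adjusted p = 0.000244). This direction rested on the scaling: the log2 fold change was 0.02 (adjusted p = 0.861) when the authors' size factors were used, -0.09 (adjusted p = 0.415) under upper-quartile scaling and -0.33 (adjusted p = 0.00485), called lower, by library size alone. For mud the authors' deposited table likewise lists 0.02 on the log2 scale (adjusted p = 0.985). Relative to the median of all tested genes, mud stood 0.61 higher on the log2 scale with TMM. A change of scaling moves all genes nearly together, so this value is bound to stay at 0.61 with each of these 3 scalings. The antisense gene asRNA:CR46473 covers the whole span of mud in the RefSeq table but was not among the genes counted. The strand setting of the counting is not given, so the counts of mud may include its reads, and the pair cannot be told apart. The tested genes with values most like those of mud were TTLL4A, Spn and Epg5, at distances of 0.06, 0.20 and 0.21 in log2 CPM over 4 libraries, with log2 fold changes of 0.51, 0.39 and 0.35.

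The order of pins and mud turned between the groups. Reads of pins stood to those of mud as 0.420 and 0.479 to 1 in the input and as 1.20 and 1.20 to 1 in the IP. For insc and mud the ratio was 0.108 and 0.151 in the input and 0.843 and 0.735 in the IP. The intervals of the log2 fold changes of insc (2.83 to 3.39), pins (1.71 to 2.16) and mud (0.30 to 0.74) did not overlap one another.

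The fate determinant gene numb, whose product antagonises Notch, had 335 and 349 CPM in the IP and 64.4 and 58.1 CPM in the input. The IP libraries were both far above the input libraries. It rose 5.60-fold (log2 2.49 ± 0.11 SE, adjusted p = 2.49e-12), in the middle of the 9 genes.

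**Figure D2:**
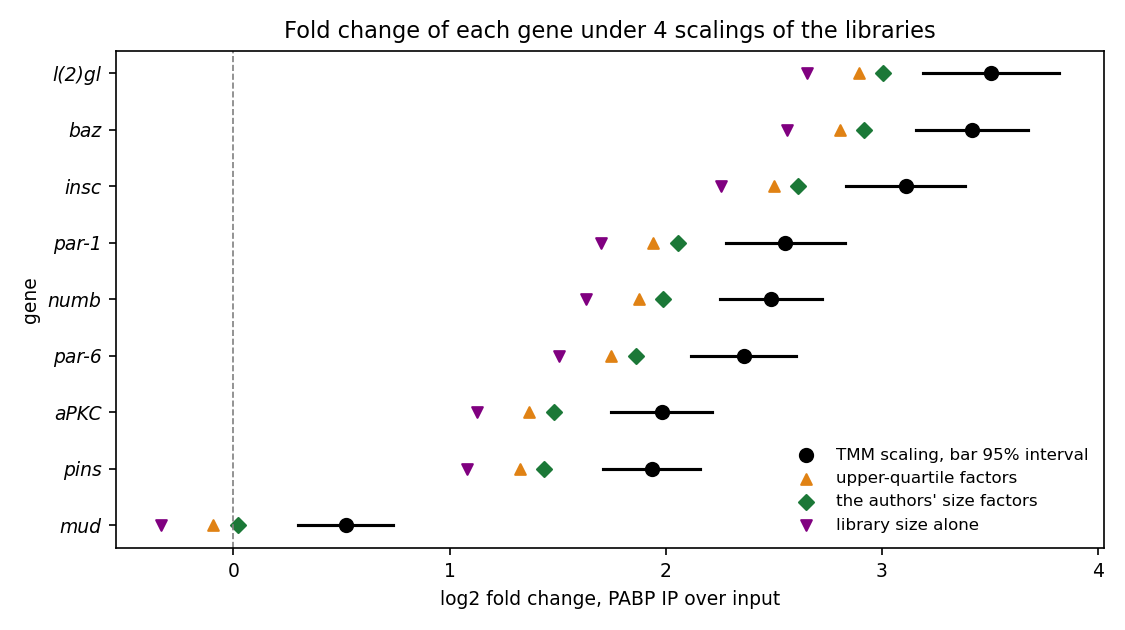
Log2 fold change of each gene, PABP IP over input, with TMM scaling (black, bar for the 95% interval) and with 3 other scalings of the libraries. All genes shift left together under the other scalings; mud, at 0.52 with TMM, reaches -0.33 with library size alone.

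Ordered by fold change, the genes ran l(2)gl, baz, insc, par-1, numb, par-6, aPKC, pins and mud. The 95% intervals of neighbours overlapped at every step except between insc and par-1 and between pins and mud, so the order of neighbours within these stretches is not resolved. Genes farther apart could differ, as the intervals of par-1 (2.28 to 2.83) and numb (2.25 to 2.72) lay above those of aPKC (1.75 to 2.21) and pins (1.71 to 2.16). These intervals are per gene and were not adjusted for the number of pairs set side by side. In the authors' deposited table the log2 fold changes were 3.005 for l(2)gl, 2.92 for baz, 2.62 for insc, 2.06 for par-1, 1.99 for numb, 1.86 for par-6, 1.48 for aPKC and 1.44 for pins. Relative to the median of all genes with TMM, the log2 values stood 3.60 higher for l(2)gl and 2.03 higher for pins.

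Shares among the 9 genes, which the scaling does not touch, shifted most, in percentage points, for l(2)gl, mud and baz. The share of l(2)gl was 39.9% and 40.3% of the summed counts in PABP IP 1 and 2 and 23.9% and 22.1% in input 1 and 2 (Wilson 95% intervals 39.4 to 40.3, 39.9 to 40.8, 22.6 to 25.3 and 20.9 to 23.3). That of mud was 3.44% and 3.44% in the IP and 15.8% and 15.5% in the input. That of baz was 12.9% and 12.3% in the IP and 7.41% and 7.98% in the input. The l(2)gl and baz genes took more of the IP and mud took less, with no overlap of the libraries' intervals. The share of par-1 was 22.5% and 22.6% in the IP and 25.0% and 25.0% in the input. That of numb was 4.96% and 4.83% in the IP and 5.75% and 5.63% in the input, and intervals of single libraries overlapped between the groups (5.16 at the top of PABP IP 1, 5.004 at the bottom of input 2). These intervals cover counting error only.

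**Figure D3:**
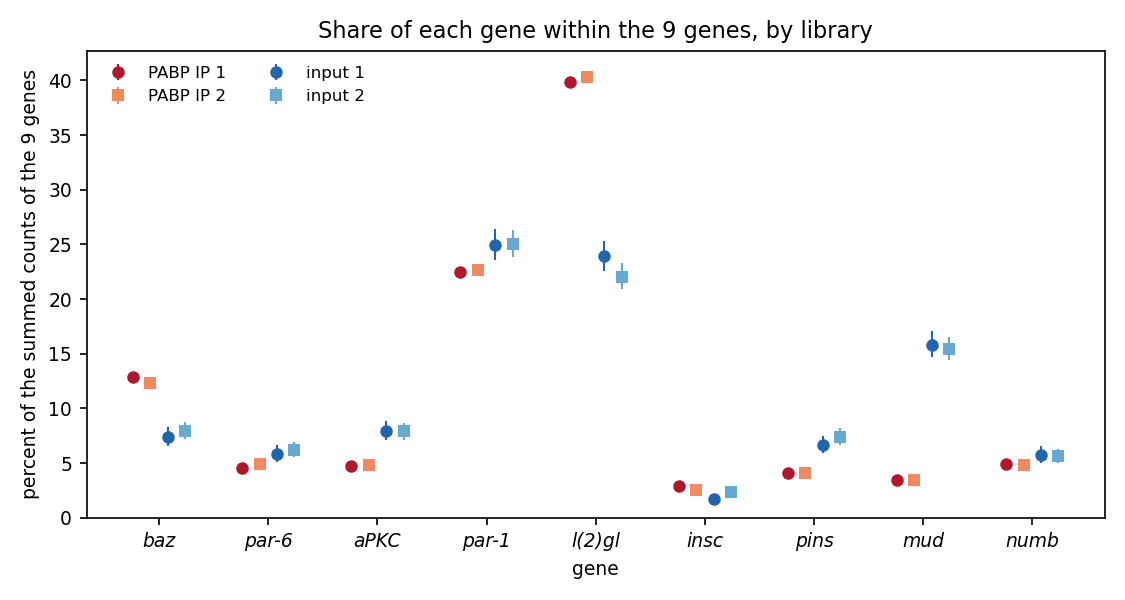
Share of each gene in the summed counts of the 9 genes, in percent, for each library, with Wilson 95% intervals for counting error. The l(2)gl share is near 40% in both IP libraries and 22.1% to 23.9% in the input, while that of mud is 15.5% to 15.8% in the input and 3.44% in the IP.

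Levels between genes were compared per kb of gene span, introns included, since the deposited lengths are whole spans. In the IP, l(2)gl led with 234 and 253 CPM per kb. The par-6 gene followed at 82.2 and 94.6 and pins at 79.1 and 84.1, and those 2 overlapped. Then came par-1 at 51.6 and 55.4 CPM per kb. Below it, mud (21.4 and 22.9) and baz (21.5 and 21.9) overlapped, ahead of aPKC (17.2 and 18.9). The values of insc (13.3 and 12.4) and numb (12.5 and 13.0) overlapped as well. In the input, l(2)gl (23.2 and 19.7 CPM per kb) and pins (21.1 and 21.6) overlapped at the top. Below them stood par-6 at 17.4 and 17.0 and mud at 16.3 and 14.7, and insc had 1.30 and 1.63. The place of insc rests on its span, 59.2% of which is shared with another gene. Over the unshared part alone, a measure added after the data were seen, insc had 32.6 and 30.4 CPM per kb in the IP, above mud, baz, aPKC and numb, and 3.19 and 3.997 in the input, above baz (2.06 and 2.04) and numb (2.48 and 2.23). Introns hold few reads of mature mRNA, so these values place long genes such as baz (40.7 kb) below short ones such as pins (3.54 kb) in a way that levels per transcript length would not.

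Span and overlap with other genes bear on the counts. Of the 9 genes, 7 had a span of at least 10 kb. Among all tested genes of that span 52.4% were called higher, against 33.7% of shorter ones, and the median log2 fold changes were 0.60 and -0.22; the part of span in the values of the 9 was not tested. The 2 short members, par-6 and pins, rose by 2.36 and 1.93. The gene sktl, which encodes a phosphoinositide kinase, lies wholly inside insc, covers 59.2% of it and has 0 counts in all 4 libraries. The meiotic gene mei-W68 lies inside par-1 over 11.4% of its span, CG33723 inside numb over 2.73% and lncRNA:CR44026 inside baz over 0.89%, each at 0 counts as well. Neither the RNA of these nested genes nor reads of the hosts from the shared stretches can be read from the counts. At the edges, Tbcb overlaps par-1 by 193 bases, CG10257 overlaps aPKC by 12 and TTLL1A overlaps baz by 3. The genes par-6, pins and l(2)gl overlap no other gene in that table.

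Partner genes of the same system were counted in 4 lists, chosen with earlier results of these data known, so their counts are descriptive only. The lists held 66 genes, of which 64 could be tested. In the IP 50 were higher and 6 lower, with a median log2 fold change of 1.37. Of all tested genes 37.1% were higher and 38.8% lower. Among tested genes with a span of at least 10 kb 52.4% were higher, and the part of span in the partner values was not tested. Upper-quartile scaling gave 43 higher and 14 lower, beside 25.8% and 57.3% of all tested genes. Library size alone gave 35 and 17, beside 22.1% and 63.5%. The authors' size factors gave 44 and 14, beside 27.5% and 53.9%. Of 18 polarity partners 16 were higher and none lower (median 1.99). The GTPase gene Cdc42, whose product activates the Par complex, rose from 77.8 and 70.2 CPM in the input to 848 and 874 CPM in the IP (log2 3.54 ± 0.13 SE, adjusted p = 1.99e-13). The GTPase gene Rap1, which acts on adherens junctions, rose by 3.92 on the log2 scale. The Crumbs complex scaffold gene sdt and its partner veli, named after their values were seen, were at 0.03 and 0.02 and were not called. Both were among the lower calls with other scalings, under which 2 of the 18 were lower and 15 (upper-quartile or authors' factors) or 12 (library size alone) higher.

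Among 18 genes of spindle positioning, 15 were higher and 2 lower (median 1.56), beside 37.1% and 38.8% of all tested genes. Library size alone gave 10 higher and 5 lower, beside 22.1% and 63.5%. Upper-quartile factors gave 12 and 3, beside 25.8% and 57.3%, and the authors' factors 12 and 3, beside 27.5% and 53.9%. The G protein gene Gbeta13F, whose subunit pairs with Galphai, rose by 3.29 ± 0.15 SE (adjusted p = 2.49e-12) and loco, the gene of a regulator of G protein cycling, by 2.59. The dynein cofactor gene nudE rose by 2.83. The spindle pole gene asp, at 111 and 114 CPM in the IP and 209 and 212 CPM in the input, fell by 0.90 ± 0.10 SE on the log2 scale (adjusted p = 2.39e-07), and the Adenomatous polyposis coli gene Apc2 fell by 0.65. The dynein heavy chain gene Dhc64C, named after its value was seen, was not called (-0.12, adjusted p = 0.362).

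Of 17 genes listed as fate determinants and adaptors of Numb and Notch, 15 could be tested. Among these 12 were higher and none lower (median 1.36), beside 37.1% and 38.8% of all tested genes. The list also holds the myosin genes sqh, zip and jar, all called higher, zip and jar being named after their values were seen. By library size alone the counts were 8 higher and 4 lower, beside 22.1% and 63.5%. Upper-quartile factors gave 10 and 3, beside 25.8% and 57.3%, and the authors' factors 10 and 3, beside 27.5% and 53.9%. The Notch ligand gene Dl rose from 53.1 and 51.4 CPM in the input to 1915 and 2282 CPM in the IP (log2 5.33 ± 0.16 SE, adjusted p = 3.78e-14). Both Dl and spdo are also on the list of progenitor markers. The gene neur, whose ubiquitin ligase activates Delta and whose product is segregated with Numb in sensory organ precursors, rose by 4.18, and the myosin light chain gene sqh by 3.16. The adaptor gene mira and the Notch regulator gene spdo had 0 counts in all libraries. They lie wholly inside Hs6st and PH4alphaEFB, so their absence cannot be read. The genes pon, AP-2mu and Sara, named after their values were seen, were not called, at 0.18, 0.21 and 0.17; pon encodes the partner that localises Numb in neuroblasts.

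Kinase and phosphatase genes went both ways. Of 13, 7 were higher and 4 lower (median 0.74), beside 37.1% and 38.8% of all tested genes. The counts were 6 and 6 by upper-quartile factors, beside 25.8% and 57.3% of all tested genes. They were 5 and 6 by library size alone, beside 22.1% and 63.5%, and 7 and 6 by the authors' factors, beside 27.5% and 53.9%. The phosphatase genes wdb and flfl, which encode regulatory subunits of PP2A and PP4, rose by 2.97 and 2.48. Part of flfl, 32.9% of its span, is shared with omd. The cyclin gene CycB went from 893 and 872 CPM in the input to 242 and 235 CPM in the IP (log2 -1.89 ± 0.11 SE, adjusted p = 8.66e-11). The genes of the mitotic kinases aurA and polo, which phosphorylate polarity proteins as cells enter division, changed by -1.64 and -0.98, and bora, the gene of an activator of Aurora A that was named after its value was seen, by -1.13. The mitotic kinase gene Cdk1, named likewise, was not called (0.17). Of 6 female germline markers 5 were lower in the IP as well, the list summing to 188 to 197 CPM there and 764 to 789 CPM in the input, and grk was higher. Markers of other cell types moved as well. All marker counts here are with TMM, where 37.1% of all tested genes were higher and 38.8% lower. They were not taken under other scalings. Enterocyte markers were lower for 6 of 7 and higher for 1 (1153 to 1531 CPM in sum in the IP, 4000.15 to 4191 in the input), and muscle markers for 4 of 5 and 1 (2039 to 2095 and 3116 to 3294.5 CPM). Of 4 neuronal and glial markers tested 3 were lower, and of 6 enteroendocrine markers 1 was lower and 1 higher. Some markers share much of their span with other genes: osk 86.9%, vas 82.8%, nub 43.5% and Tk 37.5%. The neuronal marker elav shares 98.6% and could not be tested. The part of RNA from other cells in the values of the 4 lower genes of the kinase and phosphatase list was not tested.

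**Figure D4:**
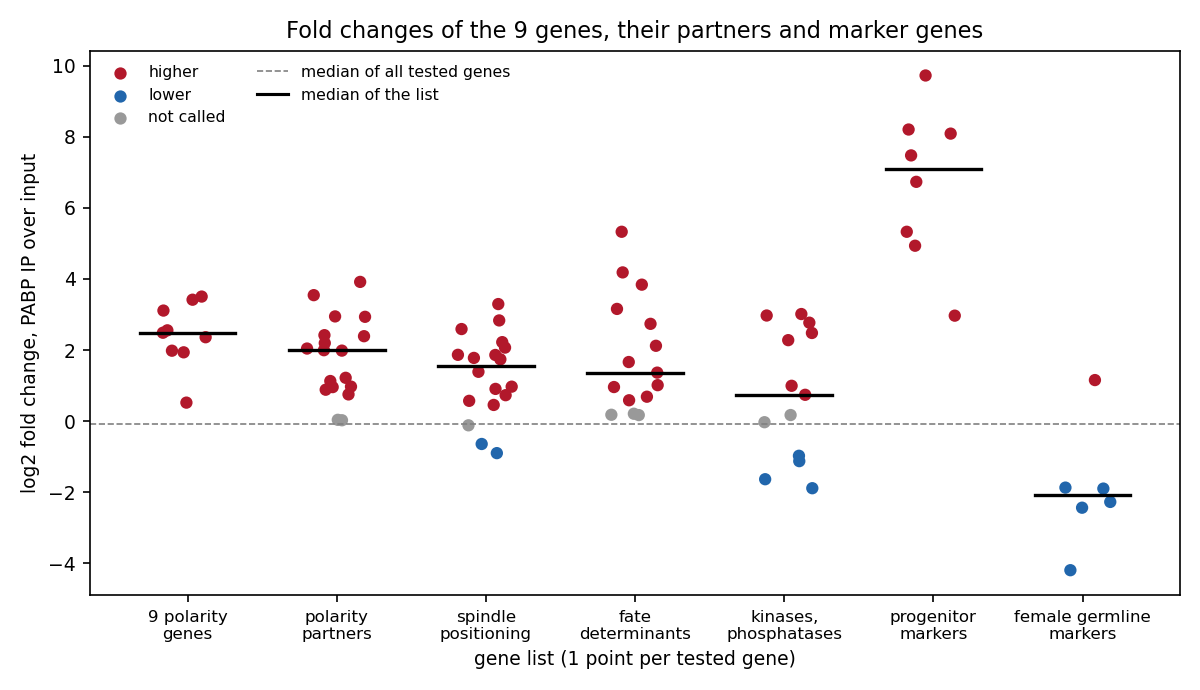
Log2 fold change of each tested gene, PABP IP over input, in the 9 polarity genes, 4 lists of partner genes and 2 lists of cell type markers; colour gives the call and black bars the list medians. The 9 genes lie between 0.52 and 3.50, below the median of 7.11 of the progenitor markers, and the female germline markers have a median of -2.09. The gene Dl appears among both the fate determinants and the progenitor markers.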

How the data were processed

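For 2 PABP IP and 2 input libraries the authors deposited raw counts of reads on 17806 named genes as whole numbers. The submitters' processing notes name STAR 2.7.3a, featureCounts in Subread 2.0.0, SAMtools 1.10, cutadapt 2.9 and DESeq2, without their order or settings. Neither strand, nor the treatment of duplicates, nor the build is stated in the sources used here. The deposited length equalled the whole gene span for 99.6% of 17736 names matched to the RefSeq gene table (Release 6), which was used for names and overlaps only. Per the file headers, the authors' DESeq2 table holds log2 fold changes and their errors, p-values, a Wald score and a normalized signal, each signal value being the count divided by 1 size factor per library. A row without a gene name (at most 0.000418% of a library) was left out.

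The test was that of edgeR 4.0.16 (R 4.3.3), after filterByExpr with a minimum count of 10 and TMM scaling, by glmQLFit and glmQLFTest, two-sided, Benjamini-Hochberg over all 9989 tested genes. A standard error is the log2 fold change divided by the root of F; 95% intervals use the test's degrees of freedom. In simulated counts for this comparison (9989 genes, 200 changed, 3 runs) the test found 55.3% of the genes changed 1.5-fold, 74.7% of those changed 2-fold and 98.0% of those changed 4-fold. The simulation used a common spread for all genes and few changed genes, in random directions. The real comparison called 3708 genes higher and 3873 lower, so these rates need not hold for it. Alternatives were RLE and upper-quartile factors, library size alone, the authors' size factors, 2 other count filters, DESeq2 1.42.0, limma-voom (limma 3.58.1), a replicate block, an adjusted p of 0.01, glmTreat at a log2 fold change of 1, and each library left out. The input libraries held 2464629 and 3346231 counts.

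The members and lists were chosen with earlier results of these data known. Named genes were all 9 members, up to 3 genes per list and direction with the lowest p, the 3 genes nearest to the members with the highest and lowest fold change (Euclidean distance), genes overlapping a member, pAbp, and markers; others are marked in the text. A few genes that this rule names are not reported here. No sequences are shown.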

Additional observations from a re-analysis of the deposited data

How the results depend on the processing

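Of the 9 genes, 8 kept their direction and their call under all 16 alternatives, with log2 fold changes from 1.08 (pins, library size alone) to 3.62 (l(2)gl) at the extremes. The exception was mud, which went to -0.093 under upper-quartile scaling and to -0.33 by library size alone, was not called with the authors' size factors (0.02) and did not pass the test against a log2 fold change of 1; it stayed between 0.43 and 0.59 when each library was left out in turn. With library size alone 1 of the 9 genes was therefore lower. Over all genes, library size alone gave 2209 higher and 6347 lower, the test against a log2 fold change of 1 gave 2145 and 1584, and DESeq2 gave 2520 lower. Of the 64 tested partner genes, 14 were lower under upper-quartile scaling (57.3% of all tested genes). By library size alone 17 were lower (63.5%), and by the authors' size factors 14 (53.9%). Against a log2 fold change of 1, 2 were lower (1584 of all 9989 tested genes) and 34 higher (21.5%). The scaling factors alone differ between the first 3 of these fits. Leaving out a library gave 3458 to 3645 higher and 3218 to 3599 lower genes. The replicate numbers in the labels are not stated to pair the samples; the replicate block gave 3660 higher and 3817 lower genes and 9 of 9 polarity genes higher. Replicate deviations of IP and input correlated at -0.32 over 4939 genes, and the crossed pairing, added after the data were seen, gave 3822 higher and 4032 lower. No input library had more than 3346231 counts, and insc, with 63 and 109 input counts, had the fewest reads of the 9.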
